A study of Mus musculus with 6 samples.

Results

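Far distal regions of open chromatin that every thymus library shared are described here. Windows reaching 250 bp to either side of the peak summits on chromosomes 1 to 19 were merged over 6 libraries into 72291 regions. A region was kept when all 6 libraries had a summit in it and its best-scoring summit lay more than 50 kb from both annotated ends of every protein-coding gene (GRCm38). This left 6070 regions, among 37606 shared by all libraries and 72291 in all. The regions were thus chosen by the presence of a summit in each library and, for the summit that fixes the distance, by its score. Presence in every library and distance from genes are therefore no finding.

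ATAC-seq, which uses a transposase to cut and tag open chromatin, was run on thymus from mice aged 4 weeks with germline p53 alterations. The design set a p53 allele named AD and described as dimeric against loss of p53. Of the 6 libraries, 3 were p53 AD/- (AD/- 1, 2 and 3) and 3 were p53 -/- (null 1, 2 and 3). The strain of all was given as 50% BALB/C - 50% C57BL6, both alterations were germline, and no library came from a mouse with wild-type p53. The labels do not say that the libraries came from separate mice, so p-values measure the spread between libraries.

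Open chromatin far from genes often marks enhancers, stretches of DNA to which transcription factors bind and which act on promoters across long distances. In developing T cells, large gene deserts beside Bcl11b, Satb1, Gata3 and Myc hold such elements. Other far sites can be promoters of long noncoding RNAs (lncRNAs), internal promoters of long genes, or sites of the insulator protein CTCF.

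Each summit carries a score, read as the −log10 of the q-value. Scores grow with depth, so each is given below as a percentile among the summits of its library, 100 being the highest. The libraries held 53526, 58996 and 43589 summits in AD/- 1, 2 and 3 and 53102, 54558 and 56836 in null 1, 2 and 3, and read depth is unknown. AD/- 3 stood apart with the fewest summits. Across the far distal regions, Spearman's rho of scores was 0.925 to 0.928 between AD/- 3 and the other libraries and 0.951 to 0.966 among the other 5. Trp53 itself is no check of the labels here, because the nearest summit lay 937 to 993 bp from a gene end in every library and the lists do not show the altered sequence. A summit inside the gene was listed in null 2 and null 3 (1 each) but not in null 1 or any AD/- library. A summit within 1 kb of a gene end was found in all 6 libraries for 70 of 78 T cell development genes, 4 of 12 B cell markers, 5 of 14 myeloid and dendritic markers and 7 of 20 thymic epithelial markers.

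The sequences that could be tied to far distal regions are promoters, mostly of lncRNAs. They are shown first because they are the far distal regions whose function is annotated. Each line gives the 250 bases before an annotated start, 5′ to 3′ on the strand of the gene (RefSeq, GRCm38.p6). Capitals mark most of the searched motifs, as listed below the sequences. D130051D11Rik (chr15:85634346-85634595, plus strand) and Gm26901 (chr1:7398097-7398346, minus strand) are lncRNAs with some of the highest scores. Gm41600 (chr17:52304258-52304507, plus strand) and Gm19585 (chr17:52149039-52149288, plus strand) lie in the gene desert beside Satb1. LOC115487176 (chr9:61013180-61013429, plus strand) and A630019I02Rik (chr13:93094583-93094832, plus strand) are the highest-scoring lncRNA starts with a RUNX motif. Foxp1 (chr6:99028299-99028548, minus strand) and Rps6ka2 (chr17:7169865-7170114, plus strand) are internal starts of protein-coding genes.
D130051D11Rik: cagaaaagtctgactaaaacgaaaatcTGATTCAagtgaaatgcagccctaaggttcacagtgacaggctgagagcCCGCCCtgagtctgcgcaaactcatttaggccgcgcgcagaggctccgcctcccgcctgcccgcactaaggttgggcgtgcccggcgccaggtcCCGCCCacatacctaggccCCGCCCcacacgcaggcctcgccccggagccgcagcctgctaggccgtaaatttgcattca
Gm26901: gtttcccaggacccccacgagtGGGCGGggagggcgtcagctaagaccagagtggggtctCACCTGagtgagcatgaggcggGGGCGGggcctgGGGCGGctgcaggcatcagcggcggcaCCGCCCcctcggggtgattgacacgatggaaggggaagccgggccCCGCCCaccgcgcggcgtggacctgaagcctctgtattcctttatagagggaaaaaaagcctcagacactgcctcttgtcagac
Gm41600: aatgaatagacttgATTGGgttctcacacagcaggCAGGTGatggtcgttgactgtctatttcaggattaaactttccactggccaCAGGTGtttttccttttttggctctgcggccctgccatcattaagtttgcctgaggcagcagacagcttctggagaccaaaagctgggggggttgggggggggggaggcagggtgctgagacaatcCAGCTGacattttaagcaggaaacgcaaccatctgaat
Gm19585: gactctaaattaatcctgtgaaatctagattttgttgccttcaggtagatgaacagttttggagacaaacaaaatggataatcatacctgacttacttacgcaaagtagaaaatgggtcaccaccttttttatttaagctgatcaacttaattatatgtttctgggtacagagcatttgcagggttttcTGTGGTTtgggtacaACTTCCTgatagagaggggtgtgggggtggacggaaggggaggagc
LOC115487176: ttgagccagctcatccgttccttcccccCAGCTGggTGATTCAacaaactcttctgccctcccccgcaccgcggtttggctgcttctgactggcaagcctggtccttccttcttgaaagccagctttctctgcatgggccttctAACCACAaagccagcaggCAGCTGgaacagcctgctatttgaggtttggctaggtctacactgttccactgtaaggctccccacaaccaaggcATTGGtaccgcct
A630019I02Rik: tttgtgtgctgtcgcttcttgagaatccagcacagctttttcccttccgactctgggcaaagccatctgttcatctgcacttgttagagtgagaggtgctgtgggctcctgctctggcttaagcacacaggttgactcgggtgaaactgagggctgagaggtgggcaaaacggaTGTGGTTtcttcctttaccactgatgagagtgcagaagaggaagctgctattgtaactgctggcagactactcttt
Foxp1: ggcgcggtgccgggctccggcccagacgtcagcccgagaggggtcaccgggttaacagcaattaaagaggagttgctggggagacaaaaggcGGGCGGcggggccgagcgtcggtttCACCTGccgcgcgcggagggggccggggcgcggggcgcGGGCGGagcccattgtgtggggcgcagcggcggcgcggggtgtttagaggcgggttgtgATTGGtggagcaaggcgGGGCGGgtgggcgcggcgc
Rps6ka2: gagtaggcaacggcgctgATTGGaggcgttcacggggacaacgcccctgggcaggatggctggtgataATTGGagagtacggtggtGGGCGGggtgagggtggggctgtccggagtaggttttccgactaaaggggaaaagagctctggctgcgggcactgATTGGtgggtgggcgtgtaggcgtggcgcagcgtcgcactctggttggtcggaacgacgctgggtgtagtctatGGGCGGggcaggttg

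The capitals mark motifs on either strand. They are the GC box GGGCGG, the CCAAT box CCAAT, the RUNX motif TGTGGTT, the ETS motif AGGAAGT and the TCF/LEF motif CTTTGAT. The E-boxes CAGCTG and CAGGTG, the GATA motif AGATAAG, the AP-1 motif TGANTCA and the core of the CTCF motif are marked too. The Ikaros motif TGGGAA, the nuclear receptor motif AGGTCA and the decamer of the p53 response element were searched as well. Matches to these last motifs are left in lower case. Where matches overlap their capitals run together. Gm26901 and Rps6ka2 hold 5 and 2 GC boxes, while Gm41600 and Gm19585 hold none. Gm19585 has 1 RUNX match at bases 190 to 196 of the printed line and 1 ETS match at bases 205 to 211, both near its start. A match is a description and says nothing of a bound factor.

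Of the 6070 far distal regions, 199 (3.28%, 95% Wilson interval 2.86 to 3.76%) lay at an annotated start site. These were 124 at a lncRNA start only, 73 at a start of a coding gene only (an internal start more than 50 kb from either end) and 2 at both. Among the other shared regions 27.0% lay at a start site, which follows in part from the distance rule. Among far regions found in 1 to 5 libraries the share was 1.53%. Regions at a start site scored higher than the other far distal regions in 6 of 6 libraries, by 15.5 ± 1.27 percentile points (SD over libraries, exact sign-flip permutation p = 0.03125, two-sided, the smallest that 6 libraries allow, adjusted 0.03125 over 5 comparisons). Those at lncRNA starts scored lower than those at coding starts in 6 of 6 libraries, with a difference of -9.01 ± 1.85 points (same exact permutation test, p = 0.03125, adjusted 0.03125).

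The lncRNA starts among far distal regions differed in letters from the lncRNA starts of other shared regions. Over windows of 300 bases around each start, the GC box was present in 28.2% of 149 windows at far distal regions, 59.4% of 1297 windows at other shared regions and 35.9% of all 31364 promoter windows. The RUNX motif was present in 15.4% (10.5 to 22.1%), 5.40% and 5.32% of the same sets. AP-1 was present in 14.8%, 5.32% and 7.85%, the E-box CAGCTG in 28.2%, 17.0% and 16.3%, and TCF/LEF in 7.38%, 2.54% and 3.76%. Other motifs of factors active in thymocytes had closer shares: ETS 12.1%, 11.2% and 9.38%, Ikaros 26.2%, 20.8% and 25.3%, and the E-box CAGGTG 26.8%, 22.4% and 20.5%. GATA was present in 4.70%, 1.93% and 3.04%. The median GC content was 51.3% with 6 CpG at far distal lncRNA starts, against 62.7% with 22 CpG at the other shared lncRNA starts and 53% with 7 CpG over all windows. The p53 decamer was found in 8.05%, 6.94% and 8.36%. The compared starts were unlike in kind. Of the other shared regions at a lncRNA start, 621 were also at a coding start and 560 were not. Among far distal regions these counts were 2 and 124, since the distance rule leaves out most coding starts. Coding starts at other shared regions had a median GC content of 62.7% with 23 CpG, much like the lncRNA starts there. The part this plays in the shares was not tested. The shares themselves were not tested either, and base composition moves with them.

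At the coding starts, 57.5% of 80 windows at far distal regions held a GC box, against 71.1% of 9488 at other shared regions. The ETS motif was in 15% (8.79 to 24.4%) and 8.43%, the E-box CAGCTG in 25% and 14.0%, and the CCAAT box in 23.75% and 39.2%. These shares were not tested. Foxp1 encodes a forkhead factor needed for naive T cells, and its internal start scored at percentiles 79.7, 82.5 and 77.8 in AD/- 1, 2 and 3 and 77.6, 79.9 and 83.3 in null 1, 2 and 3. At the internal start of Rps6ka2, which encodes a ribosomal S6 kinase, the percentiles were 98.6, 97.7 and 96.5 in AD/- and 98.7, 97.8 and 98.5 in null. At both starts the genotypes overlapped.

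Small RNAs of the miR-181 family tune T cell receptor sensitivity, and a far distal region also lay beside the miR-181 genes of chromosome 2. Its summit, at position 38851965 inside the long gene Nr6a1, was 770 bp from the hairpin of Mir181a-2. Percentiles were 47.1, 64.9 and 51.6 in AD/- 1, 2 and 3 and 63.3, 60.8 and 61.4 in null 1, 2 and 3. The highest AD/- value was above all null values, so the genotypes overlapped. The mature miR-181a-5p (chr2:38852741-38852763, plus strand) and miR-181b-5p (chr2:38853845-38853868, plus strand) share their seed, bases 2 to 8, shown in capitals (RefSeq, GRCm38.p6).
miR-181a-5p: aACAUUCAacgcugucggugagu
miR-181b-5p: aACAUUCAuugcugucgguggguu

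Far distal regions were unevenly spread over the genome and were dense beside genes of T cell development. Territory more than 50 kb from a gene end covered 1206 Mb, 49.7% of the length between the outermost gene ends, and held 5.02 far distal regions per Mb. The remaining length held 25.8 shared regions per Mb. Each base of far territory was given to the coding gene whose end was nearest. The list of T cell development genes had 1.04% of the far territory and 6.05% of the far distal regions, 367 regions or 29.1 per Mb. Of its 38 genes with any far territory, 33 had at least 1 region. The list was chosen with earlier results known and was not tested.

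**Figure D1:**
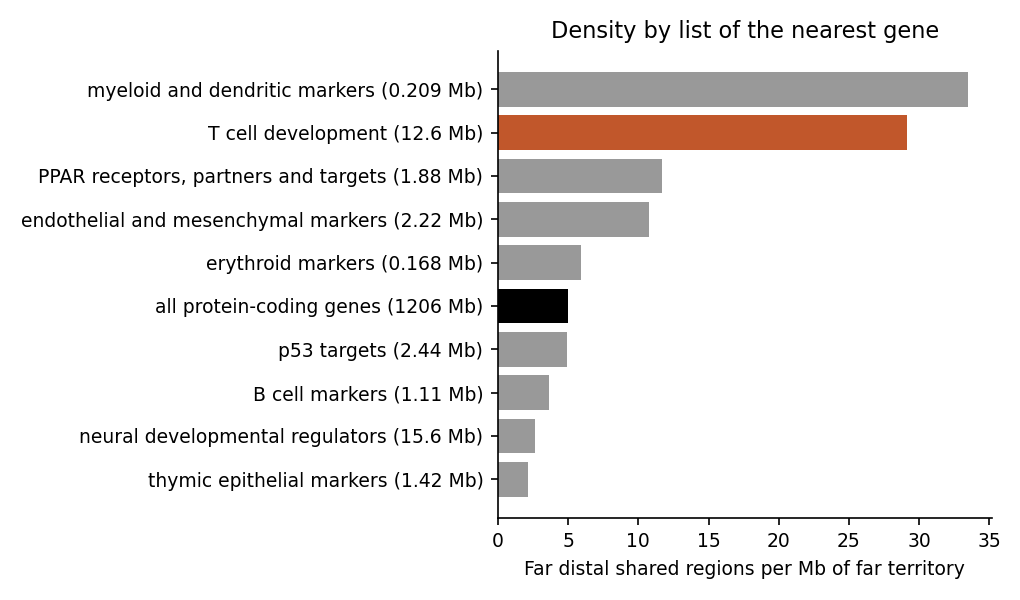
Bars give far distal regions shared by all libraries per Mb of territory more than 50 kb from a gene end, by the list of the nearest gene, with the territory of each list in brackets. T cell development genes stand at 29.1 per Mb and all genes at 5.02 per Mb, while the bar for myeloid and dendritic markers rests on 7 regions in 0.209 Mb.

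Lists of other cell types had fewer regions. Myeloid and dendritic markers had 7 in 0.209 Mb (33.5 per Mb). Neural developmental regulators, mostly silent in thymus and flanked by large deserts, had 41 regions in 15.6 Mb (2.64 per Mb). Of these 26 lay beside Sall3, a zinc finger gene. Endothelial and mesenchymal markers had 24 regions (10.8 per Mb), 6 of them beside Foxf1 and 5 beside Erg. PPAR receptors, partners and targets had 22 (11.7 per Mb), of which 8 lay at the coactivator gene Ncoa2 and 7 beside the lipoprotein receptor gene Vldlr. The p53 targets had 12 (4.92 per Mb), close to the 5.02 per Mb of all genes. B cell markers had 4, all inside Ebf1, thymic epithelial markers 3 and erythroid markers 1.

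Among T cell development genes the transcription factor genes held most of the regions. Foxp1 had 33 regions, 31 of them inside the gene itself. Tox, needed for CD4 lineage development, had 27, and Satb1, an organiser of chromatin in thymocytes, had 26. Sox4, an HMG-box factor, had 24. Bcl11b, the factor that fixes T lineage commitment, had 22, and Runx1 had 20. Myc, Id2, Ets1, Foxo1, Gata3 and Rora had 19, 18, 17, 17, 15 and 15. Ptprc, which encodes the surface phosphatase CD45, had 27, the most of the genes on the list that are no transcription factor. Per Mb of far territory, Bcl6 and Lef1 reached 85.4 and 84.4, whereas Gata3 and Myc, with deserts of 1180 and 1325 kb, had 12.7 and 14.3.

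The best-scoring regions of this list were near the top of every library. At Ets1, an ETS factor of lymphocytes, a region inside the gene 59.7 kb from its end (summit at chr9:32695948-32695948) stood at percentiles 95.7, 95.8 and 95.3 in AD/- and 96.1, 95.8 and 93.7 in null. At Sox4 a region 397 kb away stood at 93.0, 94.0 and 90.9 in AD/- and 93.3, 93.1 and 92.1 in null. At Lef1, a partner of beta-catenin, a region 90.6 kb away stood at 91.4, 92.8 and 90.1 in AD/- and 91.5, 90.8 and 91.6 in null. In these 3 regions the genotypes overlapped.

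At Gata3, the master factor of T cell specification and CD4 fate, a region 262 kb away had percentiles of 89.6, 88.5 and 88.5 in AD/- and 89.8, 90.6 and 91.2 in null. All null values were above all AD/- values, with a difference of -1.68 points between the means, but by rank among shared regions the genotypes overlapped. Beside Ptprc, a region 256 kb away had 90.6, 91.5 and 88.2 in AD/- and 89.7, 89.4 and 92.2 in null. Beside Tox, a region 464 kb away had 88.0, 88.5 and 86.7 in AD/- and 86.7, 88.9 and 88.3 in null. Both overlapped between genotypes, as did the best regions of Rora and Foxo1. A second region at Ets1, 171 kb away, had 87.1, 87.6 and 86.6 in AD/- and 89.6, 88.0 and 88.8 in null. All its null percentiles were above all AD/- percentiles, with a difference of -1.70 points, but by rank the genotypes overlapped. By percentile, 5.54% of all shared regions were separated in that direction.

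Far distal regions came in runs. Joining neighbours within 50 kb gave 2145 groups, of which 1034 were single regions and 85 held 10 or more, 1266 regions together. The largest group had 52 regions over 614 kb of chromosome 17 (51893073 to 52507040), between Satb1 and the potassium channel gene Kcnh8. A further 68 regions of this stretch were found in 1 to 5 libraries, so that 43.3% were in all, close to the 42.8% of far regions as a whole. The next groups had 32 regions over 468 kb beside Sox4 on chromosome 13, where 35.2% of far regions were in all libraries, and 29 over 291 kb between Bcl6 and Lpp on chromosome 16, where 50.9% were. No region of these 3 groups lay inside a protein-coding gene.

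Within each of the 3 groups scores ranged widely. Beside Satb1 the mean percentile over libraries ran from 10.4 to 93.8, with a median of 51.9. The highest lay 635 kb from Satb1, with 95.3, 95.4 and 91.1 in AD/- and 94.8, 92.1 and 94.1 in null. Beside Sox4 the range was 5.68 to 96.4, and the highest region, at -436 kb from the gene (towards the chromosome start), had 95.6, 96.8 and 96.8 in AD/- and 97.1, 97.3 and 94.8 in null. A mean percentile of 90 or more was reached by 1 region beside Satb1, 2 beside Sox4 and 0 beside Bcl6.

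**Figure D2:**
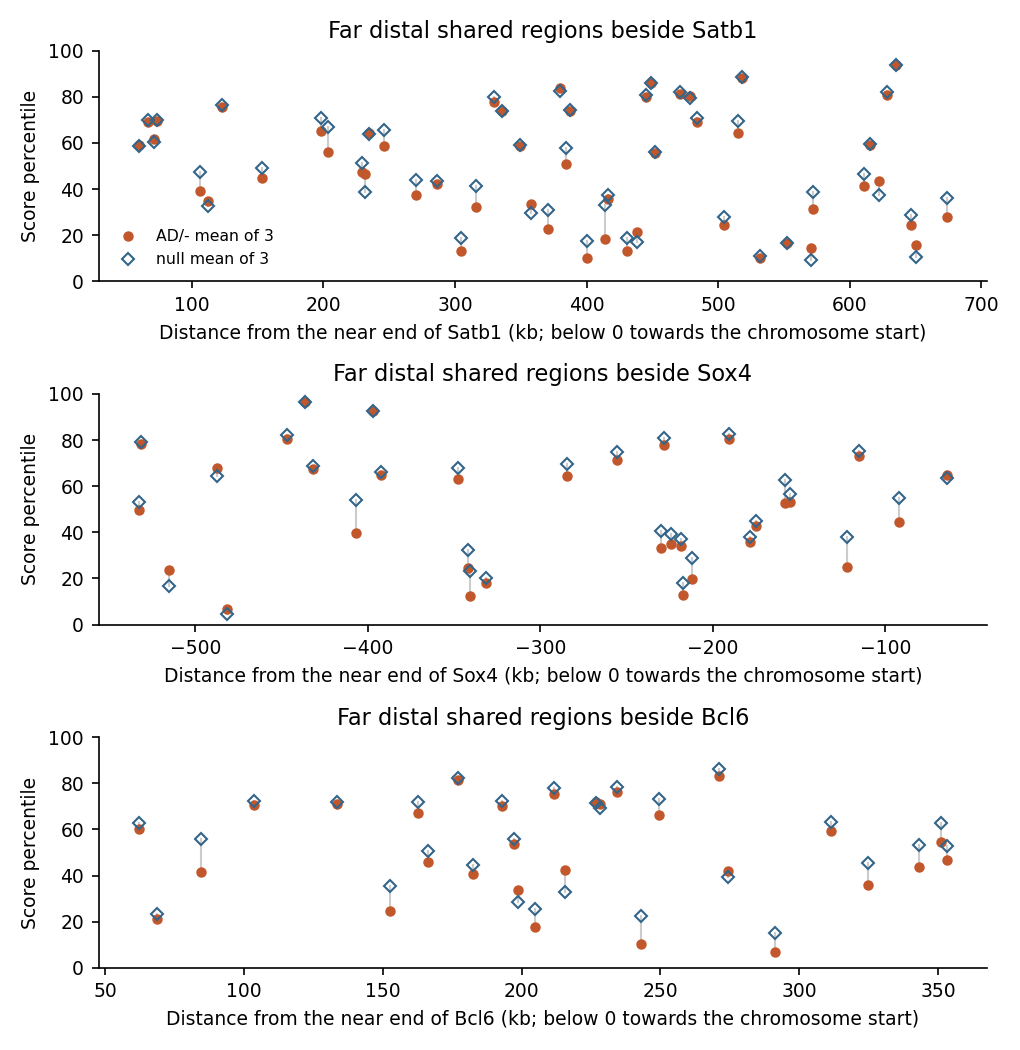
Points give the mean score percentile of 3 libraries per genotype for each far distal region of the 3 largest groups, against distance in kb from the near end of Satb1, Sox4 or Bcl6, with a grey line joining the genotypes. Scores run from 5.68 to 96.4 in the Sox4 group, and most pairs of points lie close together.

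The Gm41600 start printed above belongs to the Satb1 group and stood at 82.9, 81.7 and 79.3 in AD/- and 80.6, 84.7 and 81.4 in null. The Gm19585 start, in the same desert, was much lower, at 32.3, 37.7 and 27.2 in AD/- and 43.6, 38.3 and 42.7 in null. There all null values were above all AD/- values. Of the 52 regions of this group, 3 were separated with null higher and 0 with AD/- higher on the percentile scale, and 4 and 4 by rank among shared regions. Over all shared regions 5.54% and 0.768% were separated in these directions by percentile, so the percentile counts of this group are near the background. By rank the background was 4.65% with null higher and 5.07% with AD/- higher, and counts of 4 are too few to read against it. On chromosome 12, 48 far distal regions over 934 kb had Bcl11b (22) or Gm52008 (26) as the nearest gene.

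A total of 2841 far distal regions (46.8%) lay inside a protein-coding gene, in 819 host genes of at least 101 kb, since a region more than 50 kb from both ends needs a long gene. The remaining 3229 lay outside protein-coding genes, 959 of them inside another annotated gene. Outside every annotated gene were 2270 of the 6070 (37.4%). Foxp1 hosted 31 regions, Wwox, an oxidoreductase gene at a fragile site, 27, and Arid1b (a subunit of the BAF chromatin remodeller) and Gse1 24 each. Corrected for length, Arid1b and Gse1 had 6.79 and 6.801 per 100 kb and Wwox 2.96. Regions inside a protein-coding gene scored lower than those outside in 6 of 6 libraries, with a difference of -0.80 ± 0.50 points (exact permutation p = 0.03125, adjusted 0.03125, the smallest possible). This difference is small beside the middle 50% of regions, which spanned 38.9 to 70.7 in AD/- 1.

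The distance to the nearest gene end ran from 50.0 to 1412 kb, with a median of 93.2 kb. It was over 100 kb for 2741 regions, over 500 kb for 144 and over 1000 kb for 19. At the threshold, the regions just inside were in Chl1 (50002 bp) and Plekha6 (50015 bp), with percentiles of 58.0 to 64.05 and 58.4 to 69.8 over the 6 libraries. The shared regions just outside were nearest to Syk (49989 bp) and D16Ertd472e (49988 bp), with 33.3 to 49.4 and 73.6 to 81.9. The farthest region, 1412 kb from Cntnap5b, had 48.7, 50.8 and 30.8 in AD/- and 48.1, 34.0 and 48.6 in null. Regions 1271 kb from Kcnt2 and 1254 kb from Zeb2, a repressor of epithelial genes, had 55.6 to 70.8 and 22.3 to 43.8.

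Antigen receptor gene segments account for some of the most remote regions, because the table does not count them as protein-coding genes. Within 1 kb of a segment lay 54 far distal regions (0.890%), 24 at Tra and Trd, 21 at Igh and 9 at Trb, against 0.0571% of other shared regions and 1.21% of far regions in 1 to 5 libraries. Most were at V segments, 19 of 24, 20 of 21 and 9 of 9. The region at Ighv1-27, 1243 kb from Zfp386, had 74.6, 76.2 and 64.2 in AD/- and 80.4, 76.4 and 79.1 in null, with all null values above all AD/- values, by a difference of -7.01 points that was -3.28 without AD/- 3. At Trbv12-2 percentiles were 78.7, 80.6 and 75.2 in AD/- and 80.8, 79.4 and 80.4 in null, which overlapped.

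Sharing between libraries was compared by distance, as a description, since the rule used it. Of 14178 far merged regions, 42.8% (42.0 to 43.6%) were in all 6, and of the other 58113 regions 54.3% were. The share fell from 79.1% within 1 kb of a gene end to 48.3% at 1 to 10 kb, 45.4% at 25 to 50 kb, 44.2% at 50 to 100 kb and 38.7% beyond 500 kb. Among far regions in exactly 5 libraries, the missing library was AD/- 3 in 1278 of 1724 (74.1%), close to the 73.2% of other 5-library regions. Without AD/- 3 the share in all remaining libraries was 52.97%.

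**Figure D3:**
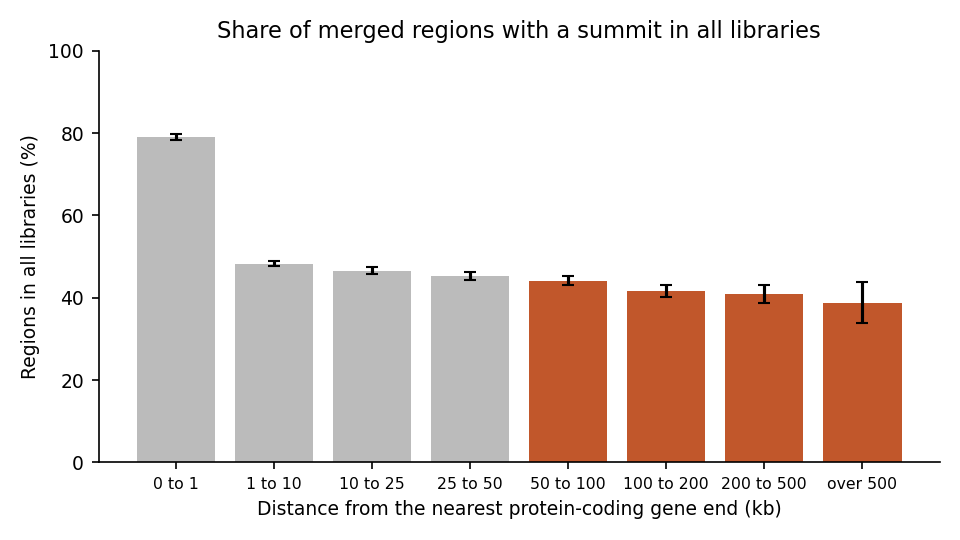
Bars give the percentage of merged regions with a summit in all 6 libraries by distance from the nearest protein-coding gene end, with 95% Wilson intervals, and coloured bars mark distances over 50 kb. The share is 79.1% within 1 kb and lies between 38.7% and 48.3% at every greater distance.

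In far distal regions the summits of the 6 libraries lay within a median of 51 bp (50 to 52) of each other, against 48 bp (48 to 49) in other shared regions, and 98.5% held exactly 1 summit per library. Their median percentiles were 55.6, 59.7 and 44.3 in AD/- 1, 2 and 3 and 54.7, 55.7 and 58.6 in null 1, 2 and 3. In the same order, shared regions within 1 kb of a gene end had 87.8, 89.0, 85.2, 87.7, 87.9 and 88.7. Shared regions at 1 to 50 kb had 57.1, 61.2, 47.7, 56.8, 58.1 and 59.8. Far distal regions were thus lower in 6 of 6 libraries, with a mean difference of -11.3 ± 1.76 points from all other shared regions and of -2.001 ± 0.842 points from those at 1 to 50 kb (SD over libraries) (exact permutation p = 0.03125 for each, adjusted 0.03125, the smallest possible). The gap came mainly from regions close to genes. Shared regions at 25 to 50 kb had a mean library median of 54.6, against 54.8 for far distal regions, so a lower score was not particular to distances over 50 kb. With 1 library left out the first difference was -11.6 to -11.3, and 5 libraries cannot give a p below 0.0625.

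**Figure D4:**
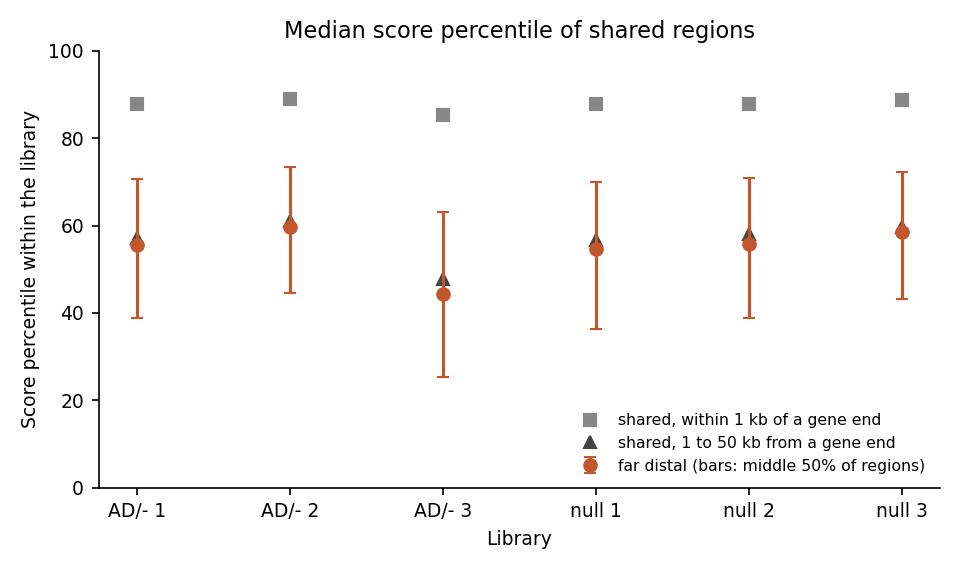
Symbols give the median score percentile per library of far distal regions (with bars over the middle 50% of regions), shared regions at 1 to 50 kb and shared regions within 1 kb of a gene end. Far distal medians run from 44.3 in AD/- 3 to 59.7 in AD/- 2, just under the 1 to 50 kb set in each library.

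The highest scores in all libraries included regions between genes and promoters. Regions nearest to Ccnh, Galc, Pex2, Tyrp1 and Esp38 were above percentile 99.9 in every library. Raw scores at the Ccnh region were 1991, 2074 and 2570 in AD/- and 2393, 5582 and 1512 in null, and null 2 also had the highest raw score at the Galc, Pex2, Tyrp1 and Esp38 regions. The sources used here do not say whether problem regions of the assembly were masked, and the part of masking in these scores was not tested. The next were the lncRNA start of 1700028E10Rik in Stard13 (99.8 to 99.9 in the 6 libraries) and the printed start of D130051D11Rik beside Wnt7b (99.7 to 99.9). Regions nearest to Asap1 and Axin2 and the internal start of the polycomb gene Pcgf5 completed the first 10, with a lowest percentile of 98.9.

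Between genotypes, far distal regions as a whole did not differ beyond the spread between libraries. The mean of the library medians came to 53.2 ± 7.98 for AD/- and to 56.4 ± 2.03 for null (mean ± SD of n = 3 libraries), which is -3.17 points (exact permutation p = 0.8, two-sided, smallest possible 0.10, adjusted 0.9 over 4 tests). Without AD/- 3 the difference was 1.46, of opposite sign. Far territory held 18.4, 18.6 and 17.2% of summits in AD/- and 17.9, 18.5 and 18.6% in null. The difference was -0.272 percentage points (exact permutation p = 0.6, adjusted 0.9) and 0.162 without AD/- 3. Ranked among the 37606 shared regions alone, a scale that does not depend on how many summits a library has, the medians were 38.3, 38.1 and 36.9 in AD/- and 37.5, 37.5 and 38.6 in null (difference -0.09, exact permutation p = 0.9, adjusted 0.9).

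For a single region the exact permutation test of 3 libraries against 3 cannot give a p below 0.10, so regions were counted where the genotypes did not overlap. On the percentile scale AD/- was higher in 55 far distal regions (0.906%), where the background over all shared regions was 0.768%. Null was higher in 326 (5.37%), against a background of 5.54%. By rank among shared regions AD/- was higher in 332 (5.47%, background 5.07%) and null in 318 (5.24%, background 4.65%). The split between directions therefore depended on the scale, and the shares were near the background on both. In either direction the counts were 381 (6.28%, background 6.3%) by percentile and 650 (10.7%, background 9.72%) by rank. On both scales together, 42 were higher in AD/- (0.692%, background 0.561%) and 155 in null (2.55%, background 2.12%), shares that are also near those of all shared regions. Of the 367 regions of the T cell list, 5 were higher in AD/- and 24 in null on the percentile scale (backgrounds 0.768% and 5.54%). By rank 20 were higher in AD/- and 25 in null (backgrounds 5.07% and 4.65%). These counts were not tested.

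**Figure D5:**
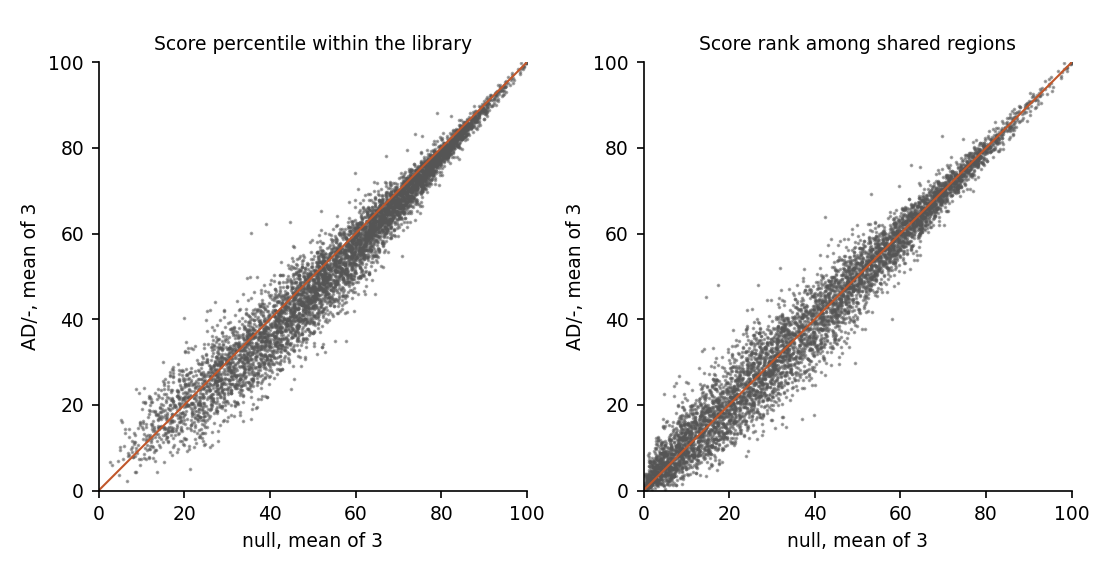
Each point is 1 of 6070 far distal regions, with its mean over 3 null libraries on the x axis and over 3 AD/- libraries on the y axis, as score percentile (left) and as rank among shared regions (right), and the line marks equality. The left cloud lies mostly under the line and the right cloud around it, with median differences of -2.14 and 0.00.

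The largest AD/- excess lay at the start of chromosome 9. The leading pair of regions was 308 and 299 kb from the nearest end of a protein-coding gene, Alkbh8, which encodes a tRNA methyltransferase. The region with its summit at 3027150 had percentiles of 54.1, 57.9 and 68.1 in AD/- and 29.97, 34.7 and 42.1 in null, a difference of 24.5 points. At 3036063 the values were 56.5, 60.5 and 69.5 against 39.1, 38.7 and 39.5. This stretch of 35.7 kb held 10 far distal regions, all with a higher mean rank in AD/-, by 11.6 to 30.6. On the percentile scale 6 of them did not overlap between genotypes, where the background over all shared regions was 0.768%. The stretch was picked for its values, so this count is a description. AD/- 3 was the highest library in each of these 10 regions, although its median over all far distal regions was the lowest. The 10 regions lie within one short stretch and are not independent, and the part that masking of the chromosome end plays was not tested.

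Other regions higher in AD/- were inside long genes and low in score. In Hecw2, a ubiquitin ligase gene, the values were 36.9, 50.1 and 34.0 in AD/- and 10.4, 29.0 and 20.6 in null. In Specc1 they were 27.8, 39.8 and 22.3 against 22.0, 12.1 and 10.6, and in Zfhx3, a homeobox gene, 30.6, 25.6 and 14.9 against 12.4, 11.3 and 2.32. These 3 did not overlap on either scale. By rank, Tnrc6a, which encodes a partner of Argonaute, also led, with percentiles of 48.3, 52.4 and 49.2 against 35.3, 34.3 and 36.8.

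The largest null excess over all 6 libraries lay on chromosome 19 beside Emx2, a homeobox gene of forebrain and urogenital development. At 59541785 the percentiles were 47.1, 45.1 and 12.9 in AD/- and 61.2, 49.7 and 62.1 in null, and at 59630688 they were 24.99, 45.8 and 25.9 against 57.6, 50.7 and 50.2. The first rested largely on AD/- 3: without it the difference was -11.6 in place of -22.7 points, while that at 59630688 was -17.5 in place of -20.6. Near Rab11fip2, a gene of membrane recycling, the region at 59743152 had 33.2, 40.7 and 30.8 against 58.2, 43.0 and 64.5, but it overlapped by rank. Its difference without AD/- 3 was -18.2 points, larger than those of the Emx2 pair. The 7 far distal regions of this 201.4 kb stretch all had a lower mean rank in AD/-, with differences of -22.1 to -7.13. On the percentile scale 4 were separated (background 5.54%), in a stretch picked for its values. Beside Elac2, 5 regions over 146 kb of chromosome 11 also had lower mean ranks in AD/-, and 2 of them were separated by rank (background 4.65%). The difference at 64899039 was -18.6 points and -8.59 without AD/- 3.

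Further null-higher regions were single ones. In Mical3 the values were 34.0, 34.6 and 2.68 in AD/- and 41.9, 41.4 and 51.6 in null, and beside Podxl, which encodes a sialomucin, they were 26.4, 38.9 and 12.9 against 48.3, 42.0 and 46.4. In both, AD/- 3 was the lowest library, and without it the differences were -10.7 in place of -21.2 points and -12.9 in place of -19.5. In Mad1l1, a spindle checkpoint gene, the percentiles were 37.4, 43.0 and 20.2 against 52.4, 56.0 and 48.2, a difference of -18.7 points, or -12.0 without AD/- 3. These regions were separated on both scales, as were 2.12% of all shared regions in that direction (5.54% by percentile and 4.65% by rank).

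Of the 114 far distal regions of the lists other than T cell development, 7 (6.14%) were separated by genotype on the percentile scale and 8 (7.02%) by rank, against backgrounds of 6.3% and 9.72%. Beside Perp, a p53 target of cell adhesion and apoptosis, the best region had 90.8, 88.3 and 87.5 in AD/- and 88.3, 90.6 and 88.9 in null. The best regions of Thbs1 and Gadd45a had 70.0 to 78.6 and 49.4 to 67.4 over the 6 libraries. Of the 12 regions of the p53 target list 0 were separated on either scale, and at a background of 6.3% so short a list gives no reading. Of the 22 regions of the PPAR list, 1 was higher in AD/- on each scale and 0 in null, again too few to read against the background. The region beside Ppara, a nuclear receptor of fatty acid oxidation, had 71.4, 75.7 and 71.0 in AD/- and 73.4, 71.5 and 74.6 in null, which overlapped.

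Among markers of other cells, a region inside the B cell factor gene Ebf1 had 82.4, 83.6 and 77.5 in AD/- and 84.2, 84.0 and 84.5 in null. A region beside Epcam, an epithelial adhesion gene, had 68.3, 70.1 and 62.5 against 74.3, 73.5 and 74.96. In both all null values were above all AD/- values, and the Ebf1 difference of -3.03 points was -1.20 without AD/- 3. Of the other named regions of these lists, all but those beside Meox2 and Dcn overlapped on both scales. The region beside Meox2 overlapped by percentile but was higher in AD/- by rank among shared regions. Its ranks were 74.1, 73.5 and 74.6 in AD/- and 70.6, 68.6 and 67.8 in null. A second region beside Epcam had 61.2, 70.0 and 47.4 against 61.4, 68.4 and 65.4, and a region beside Cxcl12, a chemokine gene, had 80.0, 81.3 and 70.5 against 79.3, 79.2 and 78.7. The other named pair of regions in Ebf1 had 48.0 to 65.1 and 47.8 to 70.2 over the 6 libraries. Regions beside Cebpb, a myeloid factor, had 55.8 to 78.0 and overlapped, as did the named region beside Cdh5, an endothelial cadherin gene. Of the 4 regions beside Cdh5, 1 was separated with null higher by percentile (background 5.54%) and 0 by rank. The best region beside Dcn, a gene of the connective tissue matrix, overlapped by rank only, and its difference of -2.36 points was -1.24 without AD/- 3. In a whole thymus, a region open in few cells cannot be told apart from one weakly open in many, and the cell mixture of the libraries was not measured.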

How the data were processed

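The authors deposited 1 list of ATAC-seq summits for each of 3 p53 AD/- and 3 p53 -/- thymus libraries, each line with a position and a score. The deposited score was taken to be the −log10 of a q-value, since its lowest values, 1.30 to 1.39, begin where q is 0.05. The submitters' processing notes name GRCm38, MACS2 2.1.2, Picard 2.9.0, Bowtie2 2.3.4.2 and Trim Galore 0.4.5, with no settings, so shifting, duplicate removal and masking are unknown here. Read depth is unknown too, and the libraries had 43589 to 58996 summits.

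Regions were merged in Python 3.11.15 with pandas 2.3.3. Gene ends came from a RefSeq table on GRCm38.p6 without strand, and promoter windows from a second RefSeq table. Group differences were tested with exact permutation tests, with Benjamini-Hochberg adjustment, and shares carry 95% Wilson intervals, which cover counting error only. The scripts were tested on simulated data. Members and gene lists were chosen with earlier results of these data known. The named regions are the 10 with the highest lowest-library percentile, the 6 farthest, the 5 with the largest difference for each genotype, the 3 largest groups, list members (up to 12 for T cells, 3 for other lists) and 2 on each side of the threshold. Host genes, promoters, small RNAs, receptor segments and stretches with several named regions were named after their values were seen. Alternatives were other extensions, distances, score filters, list lengths and gene tables, and each library left out. The rank among shared regions, the set at 1 to 50 kb, the comparisons by start site, by kind of start and by position inside a gene, and the T cell share were added after seeing the data. The planned motif and base composition of the regions themselves were not analysed here.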

Additional observations from a re-analysis of the deposited data

How the results depend on the processing

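The number of far distal regions rose to 10862 with a distance of more than 25 kb and fell to 2741 with more than 100 kb and to 1776 when every annotated gene was avoided. With 1 library left out, and a summit required in the other 5, it was 6099 to 7341. The share of far regions found in all libraries was 38.6% with 100 bp extensions, 46.5% with 500 bp, 45.6% for scores of at least 5, 53.3% for lists of equal length (the 43589 best summits of each library), 43.9% at 25 kb, 41.3% at 100 kb and 39.7% away from every gene. It was 44.6% to 52.97% with 1 library left out, the highest value being that without AD/- 3. The range of summit positions was 49 bp with 100 bp extensions, 48 bp for scores of at least 5, 47 bp for equal lists and 46 to 49 bp with 1 library left out.

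Counts of regions whose genotypes did not overlap depended on the setting. AD/- was higher at 22 of 5504 regions for scores of at least 5 and at 286 of 5323 for equal lists. It was higher at 83 of 10862 regions at 25 kb, 26 of 2741 at 100 kb and 18 of 1776 away from every gene. By rank among shared regions it was higher at 332 of 6070 (background 5.07%). The count was 66 to 1037 with 1 library left out, the latter without AD/- 3, where 3 libraries face 2 and chance separation is more frequent by construction. Null was higher at 429 regions for scores of at least 5 and at 279 for equal lists. It was higher at 572 regions at 25 kb, 143 at 100 kb and 85 away from every gene. By rank it was higher at 318 (background 4.65%). With 1 library left out the null count was 424 to 1464, the latter without AD/- 2. Shares over all shared regions were not computed for the other settings, so those counts have no background beside them. The genotype difference in median percentile was -6.43 to 1.46 with 1 library left out and had the opposite sign, 1.46, without AD/- 3. The difference in the far share of summits was 0.177 percentage points for equal lists, 0.162 without AD/- 3 and -0.544 to 0.162 over all single omissions. Far distal minus other shared regions stayed between -11.6 and -11.3 points with 1 library left out, where the exact permutation p cannot fall below 0.0625. The T cell share was 4.99% at 25 kb, 9.27% at 100 kb and 6.05% to 6.14% with 1 library left out. Of 22 named regions separated on the percentile scale, 8 had a difference that moved by over 1.5 times when AD/- 3 was left out, at Emx2, Mical3, Podxl, Elac2, Mad1l1, Ebf1, Dcn and Zfp386, with the values given beside each. The planned change of sequence window was not run, as region sequences were not analysed here. No paired analysis was possible because the labels give no replicate numbers that link the genotypes. Without read counts, a region absent from 1 library cannot be told from one below its detection limit.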
